A study of Homo sapiens with 6 samples.

Results

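The mRNAs of 10 mitochondrial chaperones and proteases were followed in Molm13-Cas9 cells, out of 19845 genes in the count table. Members were taken by name, with earlier results of these data known, so their shares beside those of all genes are description. All 10 passed the filter on low counts, as did 11861 genes in all. They comprise 5 chaperones (HSPD1, HSPE1, HSPA9, TRAP1 and DNAJA3), 3 proteins of the matrix proteases (LONP1, CLPP and CLPX) and 2 proteases of the inner membrane (YME1L1 and AFG3L2).

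Molm13 is a human acute myeloid leukemia line that carries a rearranged MLL gene. All cultures expressed Cas9, were infected with the lentiviral vector ipUSEPR, which expresses the sgRNA from an hU6 promoter together with a red fluorescent protein and puromycin resistance, and were selected in 1.0 ug/ml puromycin. The 3 sgCtrl libraries carried sgRNAs against non-essential sequences, and the 3 sgCOX4I1 libraries carried sgRNAs against COX4I1, a nuclear-encoded subunit of respiratory Complex IV. The study used 3 independent sgRNA sequences per group, so the spread within a group holds differences between guides as well as between cultures, and a transduced culture is a population of edited cells and not 1 clone. The comparison asks how the mRNAs that keep mitochondrial proteins folded and cleared were expressed when COX4I1 was targeted.

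Nearly all mitochondrial proteins are made in the cytosol and enter the organelle unfolded. The Hsp70 of the matrix, HSPA9, pulls them in and folds them with its J-domain partner DNAJA3, and the HSPD1 ring closed by its HSPE1 lid encloses and folds others. Proteins that cannot be folded or assembled are degraded by ATP-driven proteases, LONP1 and the CLPP-CLPX complex in the matrix and YME1L1 and AFG3L2 on either face of the inner membrane. Several of these genes serve as the usual readouts of the mitochondrial unfolded protein response.

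The libraries held 17241014 to 30861943 counts each. COX4I1 mRNA was 513, 502 and 463 CPM (counts scaled to a library of 1000000) in sgCtrl #1, #2 and #3. In sgCOX4I1 #1, #2 and #3 it was 132, 378 and 133 CPM. The groups did not overlap, but sgCOX4I1 #2 stood apart with most of its COX4I1 mRNA kept, and the difference (log2 fold change -1.21, SE 0.29) had an adjusted p of 0.0512 (quasi-likelihood test of edgeR, adjusted after Benjamini and Hochberg over all genes tested). The call was gained without sgCOX4I1 #2 (log2 fold change -1.895, adjusted p = 3.37e-06, edgeR), and also without sgCtrl #1 (adjusted p = 0.0193) or sgCtrl #3 (adjusted p = 0.0372), while the adjusted p was 0.272 without sgCtrl #2. COX4I1 was also called by limma-voom (adjusted p = 0.0291) and by edgeR with no filter on low counts (adjusted p = 0.000205), but not by DESeq2 (adjusted p = 0.244). The mRNA level does not show how much of the gene was edited. All 10 myeloid markers examined were detected, with summed levels of 4540 to 5040 CPM in the controls and 5260 to 6470 CPM in sgCOX4I1, while all 4 T cell markers were under 1 CPM in every library (CD3D at 0). Of the B cell markers, 3 of 4 were under 1 CPM and PAX5 was at 16.1 to 21.4 CPM. The myeloid sum was weighted toward LYZ, which alone ranged from 1150 to 3100 CPM over all libraries. It does not show that the 10 markers moved together. Whether the shift in this sum bears on the members was not tested.

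Most of the 10 mRNAs had a slightly higher mean in sgCOX4I1, and LONP1 was the member that passed the test. The log2 fold change (sgCOX4I1 minus sgCtrl) was above 0 for 9 of the 10, with a median of 0.18 and a range from -0.027 to 0.32, beside a median of -0.0023 and 49.4% above 0 over all genes tested. At an adjusted p under 0.05, 1 of 10 members was called higher and 0 were called lower by edgeR, where 1.06% of all genes tested were called higher and 1.02% lower. At an unadjusted p under 0.05, 5 of the 10 (HSPD1, HSPA9, TRAP1, DNAJA3 and LONP1) were higher and 0 lower, where 8.90% of all genes tested were higher. Of the 11861 genes tested, 998 were lower at that p. The 3 sgCOX4I1 libraries all lay above the 3 sgCtrl libraries for 6 of the 10, where 11.2% of all genes tested did so, and lay below for 0 of the 10, where 10.4% of all genes tested did so. No member also reached the 2-fold change that the study required for a call, a pair of conditions met by 0.202% of all genes tested. These are bulk RNA measurements, in which a change in RNA per cell and a change in the share of cells that carry it cannot be told apart, and the p-values measure the spread between these libraries.

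Summed over the 10 genes, the level was 2446, 2356 and 2449 CPM in sgCtrl and 2791, 2787 and 2768 CPM in sgCOX4I1. That is 0.241%, 0.236% and 0.244% of all counts in sgCtrl against 0.279%, 0.278% and 0.281% in sgCOX4I1. The 3 sgCOX4I1 sums lay close together and above all 3 sgCtrl sums, sgCOX4I1 #2 included, which kept more COX4I1 mRNA than the other two. With sgCOX4I1 #2 left out, 9 of the 10 members were still above 0, with a median log2 fold change of 0.17. HSPD1 and HSPA9 made up most of the sum.

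**Figure D1:**
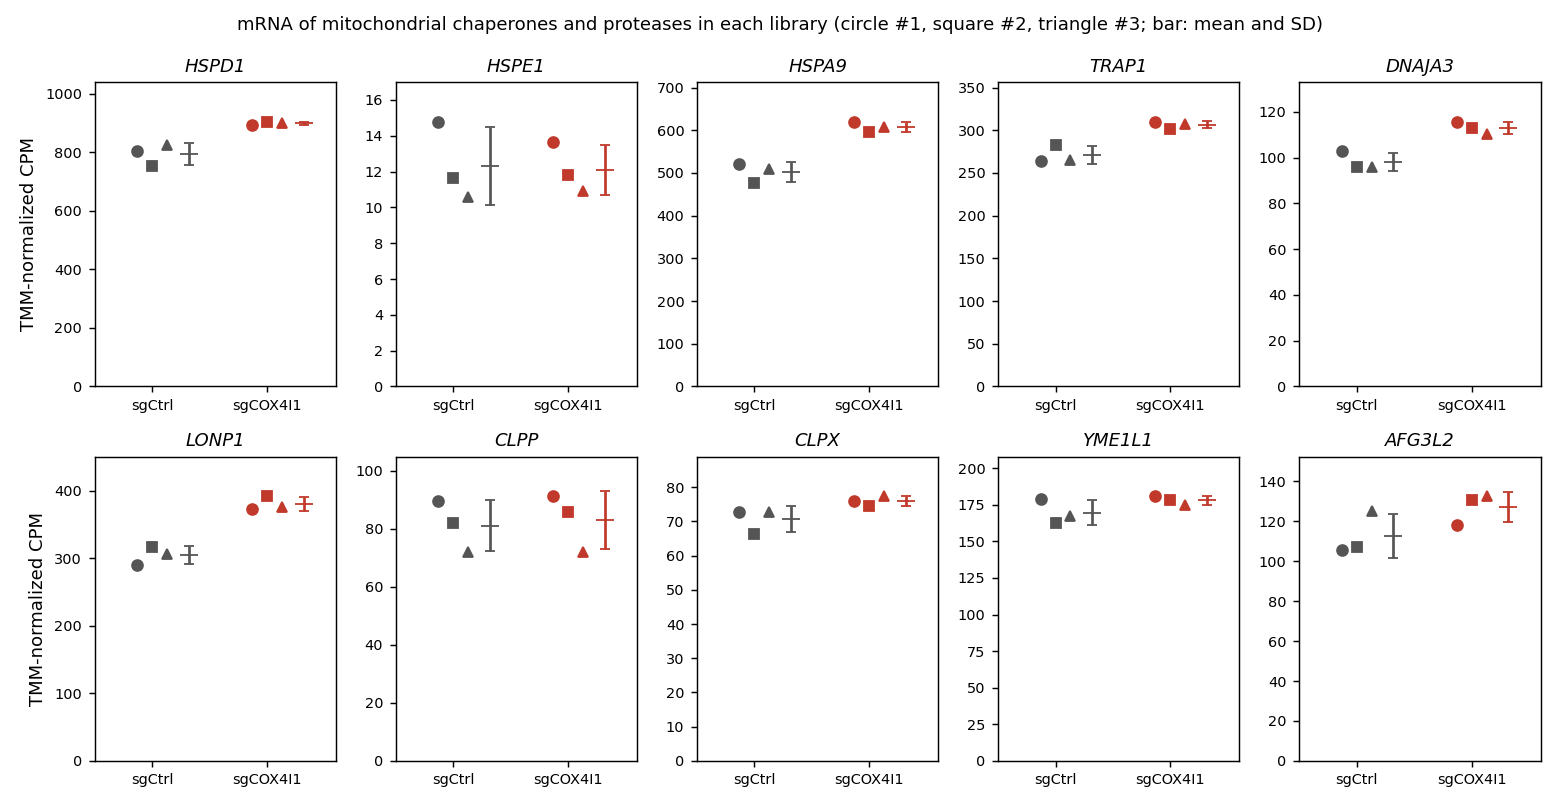
Level of each of the 10 genes in each library, in CPM after TMM normalization, with sgCtrl and sgCOX4I1 libraries as separate points. Each gene has its own linear axis, and bars give mean and SD. LONP1 lay at 289.7 to 317 CPM in sgCtrl and at 373 to 391.5 CPM in sgCOX4I1, while CLPP, YME1L1, AFG3L2 and HSPE1 overlapped between the groups.

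Per kilobase of canonical transcript, the scale on which levels of different genes can be set side by side, HSPD1 was the most abundant member in sgCtrl at 354 ± 16.5 (SD, n = 3) CPM per kb. TRAP1 followed at 122 ± 4.69, HSPA9 at 114 ± 5.10 and LONP1 at 98.5 ± 4.50 CPM per kb. These 4 did not overlap in the order given, although the lowest TRAP1 value (119) and the highest HSPA9 value (118) nearly met. A lower tier held YME1L1 (40.5 ± 2.03), DNAJA3 (36.4 ± 1.45), AFG3L2 (35.6 ± 3.42) and CLPP (33.6 ± 3.63), among which AFG3L2 overlapped with each of the other three. HSPE1 (22.1 ± 3.91) and CLPX (15.1 ± 0.787 CPM per kb) were lowest. The place of HSPE1 is uncertain, because it shares exon bases with another gene and how reads there were counted is not given.

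Among the chaperones, HSPA9 showed the largest difference. HSPA9 (mortalin, the Hsp70 of the matrix and motor of protein import; chromosome 5, 138553756 to 138575675, minus strand) was at 521, 477.5 and 509 CPM in sgCtrl and at 619, 596 and 607 CPM in sgCOX4I1. The lowest sgCOX4I1 library was above the highest sgCtrl library, and the mean went from 502 ± 22.5 to 607 ± 11.9 CPM (SD, n = 3), a difference of 20.9% in the fit. The log2 fold change of 0.27 (SE 0.074) had an adjusted p of 0.0756 in edgeR, so HSPA9 was not called. Of the alternatives without a replicate block, it was called in DESeq2's Wald test (adjusted p = 0.00887) and in edgeR with no filter on low counts (adjusted p = 0.0494), and its adjusted p ranged from 0.00887 to 0.318 over these.

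HSPD1 (Hsp60, the barrel-shaped chaperonin of the matrix; chromosome 2, 197486584 to 197516737, minus strand) was at 806, 753 and 824 CPM in sgCtrl and at 893, 904 and 901 CPM in sgCOX4I1. The sgCOX4I1 libraries were again all above the sgCtrl libraries and lay close together, with means of 794 ± 37.0 and 899 ± 5.82 CPM (SD, n = 3). The log2 fold change was 0.18 (SE 0.077), with an adjusted p of 0.247 in edgeR.

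HSPE1 (Hsp10, the lid of the HSPD1 chamber; chromosome 2, 197500140 to 197503449, plus strand) was at 14.8, 11.7 and 10.6 CPM in sgCtrl and at 13.6, 11.8 and 10.9 CPM in sgCOX4I1. The groups overlapped throughout, and the log2 fold change was -0.027 (SE 0.15; adjusted p = 0.95, edgeR). Only 203 to 341 counts per library were behind these values. Of the 557 exon bases of its canonical transcript, 34.5% are shared on the same strand with the readthrough gene HSPE1-MOB4, which was listed at 0 counts in all 6 libraries. How reads on the shared bases were counted is not given in the sources used here, and its part in the level of HSPE1 was not tested.

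HSPD1 and HSPE1 are a head-to-head gene pair. Their canonical transcripts start on opposite strands with 538 bases between the starts. The log2 ratio of HSPE1 to HSPD1 counts was -5.77, -6.01 and -6.29 in sgCtrl and -6.03, -6.26 and -6.37 in sgCOX4I1. These ranges overlapped, and the difference of -0.198 had p = 0.4 in a two-sided exact permutation test.

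**Figure D2:**
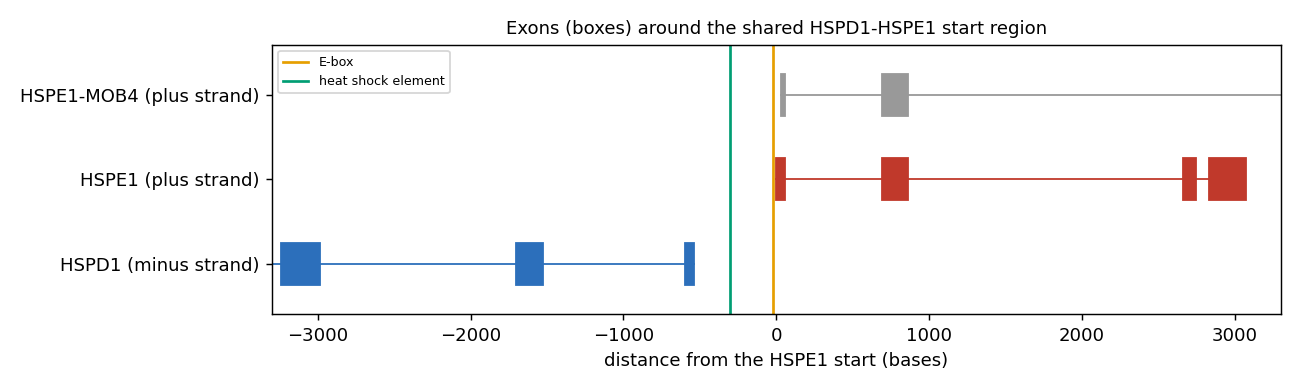
Exons of HSPD1, HSPE1 and HSPE1-MOB4 drawn to scale by distance in bases from the HSPE1 start, with strand and the positions of an E-box and a heat shock element marked. The HSPD1 start lies 539 bases upstream of the HSPE1 start on the opposite strand, and HSPE1-MOB4 covers exon bases of HSPE1.

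TRAP1 (the Hsp90 of the matrix; chromosome 16, 3651639 to 3717553, minus strand) was at 264, 283 and 265.5 CPM in sgCtrl and at 309.7, 302 and 307 CPM in sgCOX4I1. Every sgCOX4I1 library exceeded every sgCtrl library, with means of 271 ± 10.4 and 306 ± 4.09 CPM (SD, n = 3) and a log2 fold change of 0.18 (SE 0.070; adjusted p = 0.205, edgeR). Of its canonical exon bases, 39.0% lie opposite DNASE1; the library preparation keeps strand, but the strand setting of the count is not given in the sources used here.

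DNAJA3 (the J-domain partner that stimulates HSPA9; chromosome 16, 4425805 to 4456775, plus strand) was at 103, 96.1 and 95.85 CPM in sgCtrl and at 116, 113 and 110.5 CPM in sgCOX4I1. The groups were again separate, and the log2 fold change was 0.20 (SE 0.071; adjusted p = 0.16, edgeR). Of the 5 chaperones, 4 therefore had separate groups and an unadjusted p under 0.05. None of the 5 was called by edgeR as described above or by limma-voom, and HSPA9 was called in the alternatives given with it.

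The matrix protease LONP1 (chromosome 19, 5691834 to 5720572, minus strand), which degrades oxidised and misfolded proteins and binds mitochondrial DNA, rose in sgCOX4I1. It was at 289.7, 317 and 307 CPM in sgCtrl and at 373, 391.5 and 376 CPM in sgCOX4I1, so that the groups were separated by a gap wider than the range within either. The mean went from 305 ± 13.9 to 380 ± 9.85 CPM (SD, n = 3), and the log2 fold change was 0.32 (SE 0.072; 24.8% higher; adjusted p = 0.0369, edgeR). By p-value LONP1 ranked 197 of 11861 genes tested, and 7% of genes tested had a larger log2 fold change.

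The call on LONP1 held in the 7 alternatives that used all 6 libraries, with adjusted p from 0.00114 to 0.0373. With 1 library left out, the log2 fold change stayed between 0.28 and 0.35 but the call was lost each time. Without sgCtrl #1, #2 or #3 the adjusted p in edgeR was 0.0561, 0.156 and 0.062, and without sgCOX4I1 #1, #2 or #3 it was 0.0547, 0.144 and 0.11.

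CLPP and CLPX, the peptidase and the unfoldase of a single complex, differed little. CLPP (chromosome 19, 6361531 to 6370242, plus strand) was at 89.4, 81.8 and 71.9 CPM in sgCtrl and at 91.1, 85.7 and 71.85 CPM in sgCOX4I1. The groups overlapped over nearly their whole range (log2 fold change 0.031, SE 0.10; adjusted p = 0.911, edgeR).

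CLPX (chromosome 15, 65148219 to 65185342, minus strand) was at 72.9, 66.4 and 72.8 CPM in sgCtrl and at 76.0, 74.5 and 77.3 CPM in sgCOX4I1. These groups were separate but close (log2 fold change 0.10, SE 0.074; adjusted p = 0.508, edgeR). The log2 ratio of CLPX to CLPP counts within a library averaged -0.193 ± 0.182 in sgCtrl and -0.119 ± 0.197 in sgCOX4I1 (SD, n = 3), with p = 0.5 in a two-sided exact permutation test.

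Neither inner-membrane protease was called by edgeR, DESeq2 or limma-voom, or had an unadjusted p under 0.05 in edgeR. YME1L1 (the i-AAA protease, which faces the intermembrane space and cleaves OPA1; chromosome 10, 27110111 to 27155266, minus strand) was at 179, 162.5 and 167.5 CPM in sgCtrl and at 181, 178.5 and 175 CPM in sgCOX4I1. The groups overlapped at sgCtrl #1 (log2 fold change 0.068, SE 0.071; adjusted p = 0.674, edgeR).

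AFG3L2 (a subunit of the m-AAA protease, which faces the matrix; chromosome 18, 12328944 to 12377227, minus strand) was at 106, 107 and 125 CPM in sgCtrl and at 118, 131 and 132.5 CPM in sgCOX4I1. The overlap came from sgCtrl #3 and sgCOX4I1 #1, and the log2 fold change was 0.18 (SE 0.084; adjusted p = 0.305, edgeR). Of its canonical exon bases, 23.9% lie opposite TUBB6, to which the same limit on strand applies.

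SPG7, the other subunit of the m-AAA protease, was at 126, 173 and 169 CPM in sgCtrl and at 129, 131 and 149.8 CPM in sgCOX4I1 (log2 fold change -0.19, SE 0.11; adjusted p = 0.396, edgeR). The log2 ratio of SPG7 to AFG3L2 counts was 0.251, 0.695 and 0.434 in sgCtrl and 0.125, 0.004 and 0.176 in sgCOX4I1. All 3 sgCOX4I1 ratios were below all 3 sgCtrl ratios, with means of 0.460 ± 0.223 and 0.102 ± 0.088 (SD, n = 3). The two-sided exact permutation p was 0.1, the smallest that 3 against 3 libraries can give, so that no ratio could pass 0.05 in this design.

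**Figure D3:**
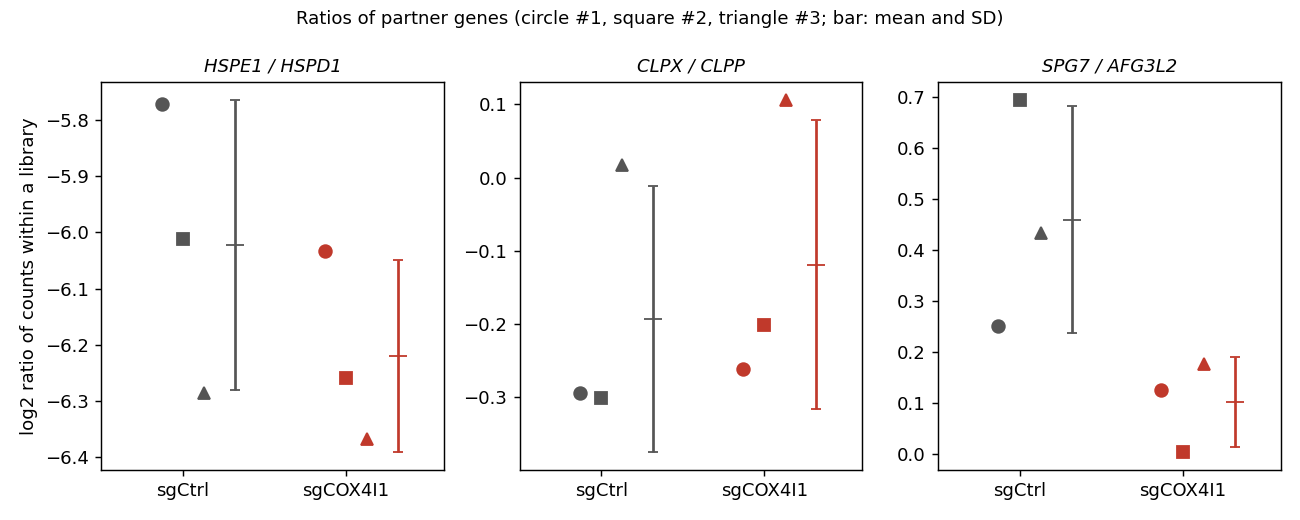
Log2 ratio of counts within each library for HSPE1 to HSPD1, CLPX to CLPP and SPG7 to AFG3L2, with points for libraries and lines for group means. The SPG7 to AFG3L2 ratio lay between 0.251 and 0.695 in sgCtrl and between 0.004 and 0.176 in sgCOX4I1, while the other 2 ratios overlapped.

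Promoter letters are shown for HSPA9, HSPD1, HSPE1 and LONP1, because these 4 hold the same E-box letters while their log2 fold changes ran from -0.027 to 0.32. RefSeq promoter windows on GRCh38.p14, from 250 bases before to 50 after a start, matched 8 of the 10 members (CLPP and YME1L1 had no entry). Capitals mark the E-box CACGTG in the lines below, except in the first, where they mark a run of heat shock letters, TTCNNGAA and GAANNTTC overlapping each other, that lies 245 to 228 bases before an HSPD1 start.
HSPD1, chr2:197500061-197500090, minus strand: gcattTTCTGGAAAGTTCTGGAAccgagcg
HSPE1, chr2:197500345-197500374, plus strand: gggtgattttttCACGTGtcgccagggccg
HSPA9, chr5:138575403-138575432, minus strand: cgcccctcacccCACGTGgttggaggtttc
LONP1, chr19:5720341-5720370, minus strand: ctcacagccttcCACGTGaccggaaaaggc
LONP1, chr19:5720178-5720207, minus strand: cgcgccgggcgtCACGTGcgtttcgcggcg

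The HSPE1 site also lies in an HSPD1 window, read from the other strand, so these genes share this E-box. That window belongs to another HSPD1 start than the one before which the heat shock run lies. CACGTG was present, on either strand, in 7.26% of 35116 promoter windows and in those of the 4 members named. The heat shock letters TTCNNGAA stood in 7.74% of all windows and in those of HSPD1 and HSPA9, and GAANNTTC stood in 6.77% and in that of HSPD1. The NRF1 letters GCGCATGC stood in 3.05% of all windows and in those of LONP1 and DNAJA3, and the cyclic AMP element TGACGTCA stood in 1.85% and in that of TRAP1. CCAAT stood in 34.6% and in the windows of CLPX and DNAJA3, and the ATF4 letters TGATGNAA stood in 3.62% and in no member's window. The motifs were chosen after the letters had been seen, and a match describes letters and not a bound site.

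Of 15 other mitochondrial chaperones and assembly factors, 14 were tested (DNLZ was too low), 10 were above 0, and the median was 0.075 on the log2 scale. None was called by edgeR, DESeq2 or limma-voom. At an unadjusted p under 0.05, 3 of them were higher and 0 lower in edgeR, beside the 8.90% higher and the 998 of 11861 lower given above. Those 3 were GRPEL2, a nucleotide exchange factor of HSPA9 (21.6 ± 0.409 against 27.1 ± 1.30 CPM, adjusted p = 0.091), TIMM44, which ties HSPA9 to the import channel (108 ± 4.02 against 124 ± 8.46 CPM, adjusted p = 0.191), and STOML2, an inner-membrane scaffold that binds YME1L1 (74.3 ± 5.04 against 85.8 ± 4.69 CPM, adjusted p = 0.192; SD, n = 3, edgeR). GRPEL1, the main exchange factor, was at 55.5 ± 5.04 against 58.6 ± 2.77 CPM (adjusted p = 0.695, edgeR).

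Of 18 other mitochondrial proteases, peptidases and related proteins, all tested, 9 were above 0 and 9 below, and the median was 0.012 on the log2 scale. In edgeR 0 were called higher and 1 lower, where 1.06% of all genes tested were called higher and 1.02% lower. At an unadjusted p under 0.05, 3 were higher and 1 lower, where 8.90% of all genes tested were higher and 998 of 11861 were lower. The call was PARL, the rhomboid protease of the inner membrane that cleaves PINK1, at 6.21, 5.65 and 6.83 CPM in sgCtrl and at 3.96, 3.43 and 3.04 CPM in sgCOX4I1. It fell by 0.85 on the log2 scale (SE 0.19; adjusted p = 0.0347, edgeR), from 104 to 139 counts per library in sgCtrl and 59 to 95 in sgCOX4I1. The call was lost without sgCtrl #2 (adjusted p = 0.145), sgCtrl #3 (0.0781), sgCOX4I1 #2 (0.126) or sgCOX4I1 #3 (0.13), and 70.8% of its canonical exon bases are shared with another annotated gene on its strand. Chosen after their values were seen, the proteases and peptidases NLN (65.3 ± 7.94 against 85.1 ± 5.91 CPM, adjusted p = 0.0512), LACTB (31.8 ± 1.74 against 40.2 ± 4.08 CPM, adjusted p = 0.088) and MIPEP (35.8 ± 3.81 against 44.6 ± 1.77 CPM, adjusted p = 0.0955) had separate groups with sgCOX4I1 above, and were not called by edgeR. Of the 18, 3 had groups separate in this direction and 1 in the other, where 11.2% and 10.4% of all genes tested did so. DESeq2 and limma-voom called NLN.

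Of 9 genes listed as regulators of the mitochondrial unfolded protein response, 3 were above 0, and the median was -0.025 on the log2 scale. Whether they act on the members' promoters in these cells was not tested. In edgeR 2 were called higher and 0 lower, where 1.06% of all genes tested were called higher and 1.02% lower. Groups were separate for 2 with sgCOX4I1 above and 2 with sgCOX4I1 below, beside 11.2% and 10.4% of all genes tested. ATF5, a bZIP factor linked to the mitochondrial unfolded protein response, was at 36.6, 34.97 and 38.0 CPM in sgCtrl and at 58.7, 63.4 and 53.4 CPM in sgCOX4I1. It rose by a log2 fold change of 0.68 (SE 0.087; adjusted p = 0.00189, edgeR), and its call held without any 1 library (adjusted p up to 0.044).

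CEBPB, a bZIP factor of myeloid and stress programs, was at 40.9, 39.9 and 47.9 CPM in sgCtrl and at 53.7, 81.6 and 64.2 CPM in sgCOX4I1. Its rise (log2 fold change 0.63, SE 0.13; adjusted p = 0.0259, edgeR) was highest in sgCOX4I1 #2, and the call was lost without sgCtrl #2 (adjusted p = 0.22), sgCOX4I1 #2 (0.116) or sgCOX4I1 #3 (0.0522). Chosen after their values were seen, ATF4, which drives the integrated stress response, was at 583 ± 62.2 against 582 ± 39.2 CPM (adjusted p = 0.988), DDIT3 (CHOP) had a log2 fold change of 0.22 (adjusted p = 0.409) and HSF1, the heat shock factor, of -0.051 (adjusted p = 0.799). NRF1, a factor for nuclear genes of mitochondria, was at 30.1 ± 1.58 against 23.9 ± 0.109 CPM with separate groups, and was not called (log2 fold change -0.34, SE 0.091; adjusted p = 0.075; SD, n = 3, edgeR).

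Cytosolic chaperones were also mostly above 0. Of 16 cytosolic heat shock genes, 15 were tested (HSPA1A was too low), 13 were above 0, and the median was 0.12 on the log2 scale. In edgeR 6 had an unadjusted p under 0.05, all higher, where 8.90% of all genes tested were higher, and 0 were called. DESeq2 called HSPA8 and limma-voom called none. HSPA8, the constitutive Hsp70, was at 1214 ± 92.6 against 1507 ± 78.3 CPM (adjusted p = 0.0871). HSPA4L, an Hsp110-type exchange factor, was at 7.86 ± 1.03 against 10.9 ± 0.372 CPM (adjusted p = 0.0979) and its relative HSPH1 at 223 ± 19.1 against 259 ± 2.85 CPM (adjusted p = 0.169; SD, n = 3, edgeR).

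Of the 8 subunits of the cytosolic chaperonin TRiC, 7 were above 0, the median was 0.046 on the log2 scale, and none had separate groups. CCT4 alone had an unadjusted p under 0.05 and was higher, where 8.90% of all genes tested were higher. Of the 8, 0 were called by edgeR, DESeq2 or limma-voom. The 3 with the smallest p were CCT4 (log2 fold change 0.24, adjusted p = 0.205), CCT3 (0.17, adjusted p = 0.312) and CCT8 (-0.066, adjusted p = 0.711). Differences between these lists were not tested.

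**Figure D4:**
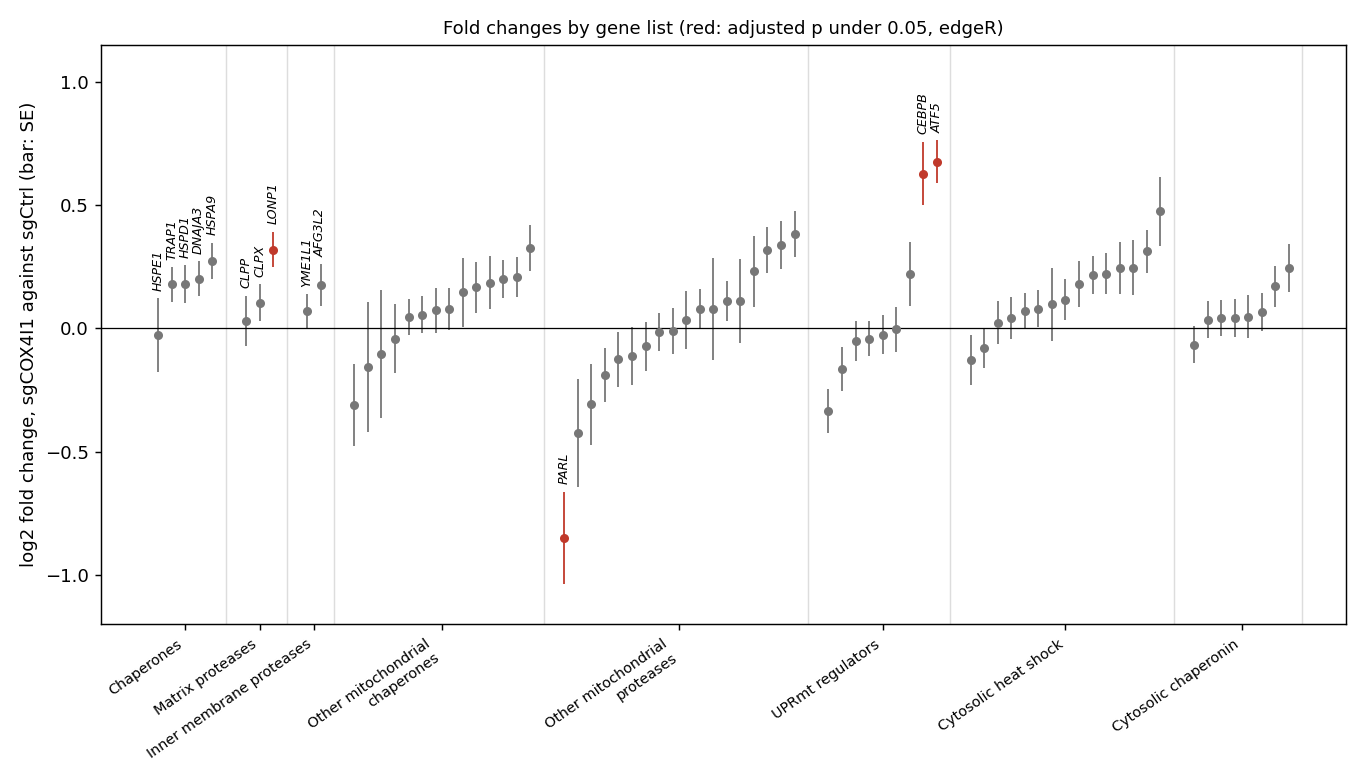
Log2 fold change (sgCOX4I1 minus sgCtrl) of every tested gene in the 10 members and in the other lists. Points are genes with bars for SE, red marks an adjusted p under 0.05 in edgeR, and the horizontal line marks no change. The members lay between -0.027 and 0.32 with a median of 0.18, and the other lists had medians from -0.025 to 0.12.

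The genes whose profile over the 6 libraries was most like that of LONP1 were URB2, CCNYL1, THEM4, TPMT and ERRFI1. Likeness was the root mean square difference between log2 CPM profiles, each centred on its own mean, and was 0.0259, 0.0286, 0.0326, 0.0353 and 0.0356 log2 units for these 5. None of these 5 was called by edgeR, with adjusted p from 0.059 for TPMT to 0.327 for ERRFI1. No other member was among the 5.

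**Figure D5:**
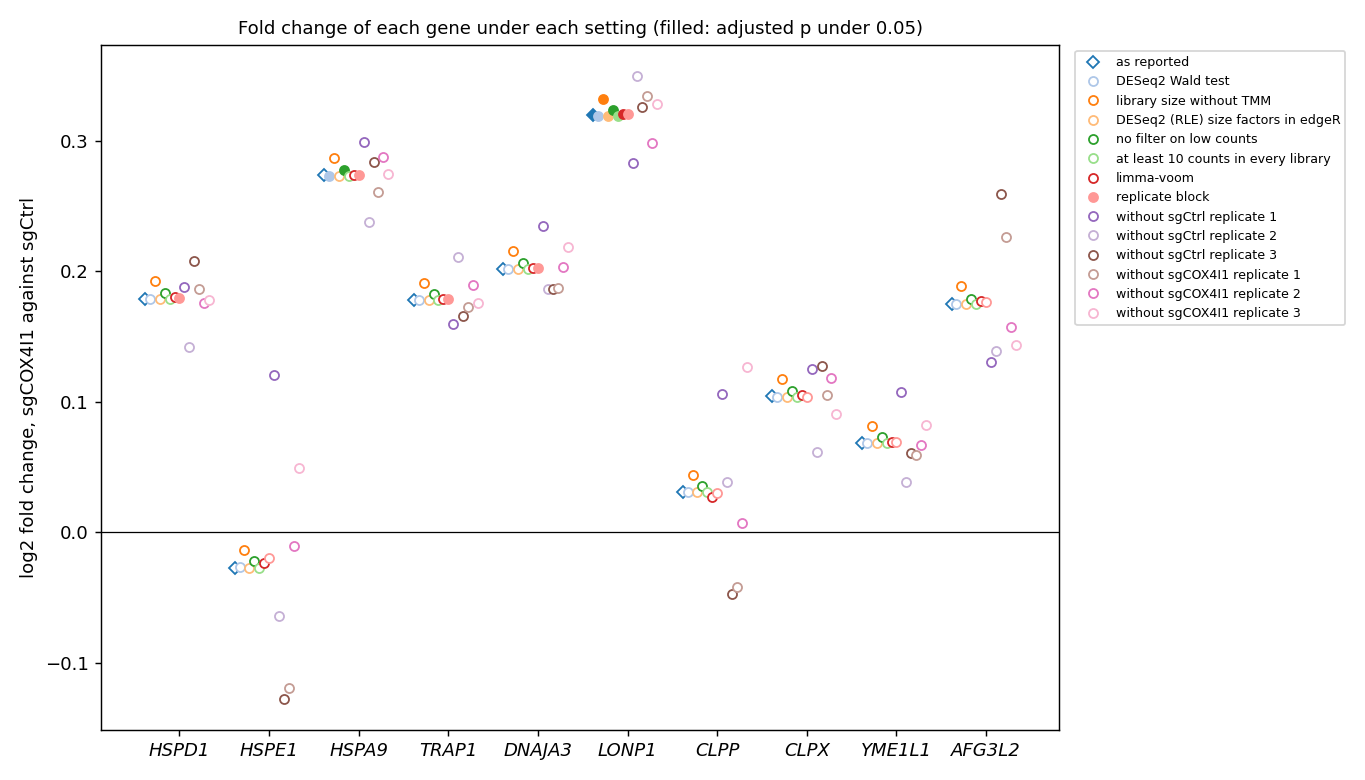
Log2 fold change of each of the 10 genes under every way of processing the counts. Diamonds mark the value as reported, and filled points mark an adjusted p under 0.05 in that setting. LONP1 stayed between 0.28 and 0.35 in every setting, while HSPE1 and CLPP crossed 0 when 1 library was left out.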

How the data were processed

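Directional mRNA libraries from 3 sgCtrl and 3 sgCOX4I1 cultures of Molm13-Cas9 cells were sequenced by the authors, who deposited 1 table of raw read counts per gene. The submitters' processing notes name bcl2fastq 2.20.0.422, STAR 2.6.0a, edgeR and the build GRCh38, whereas the methods of the study name Trimmomatic, Bowtie2 and RSEM; the annotation and strand setting of the count are not given in the sources used here. Columns named C and K with a number were read as sgCtrl and sgCOX4I1 of that number.

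Genes were filtered with filterByExpr, scaled by TMM and tested with the quasi-likelihood test of edgeR 4.0.16 (R 4.3.3) in a model of group, with Benjamini-Hochberg adjustment over 11861 genes and a threshold of 0.05. CPM are TMM-normalized. CPM per kb divides by canonical transcript length in GENCODE 44 (GRCh38), which also gave the coordinates. Ratios were tested with exact permutation. Alternatives were DESeq2 1.42.0, limma-voom (limma 3.58.1), other scaling and filters, a replicate block and leaving out each library. A prior count of 2 was used for log2 CPM profiles. Scripts were tested on simulated counts.

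Named were all 10 members, COX4I1, GRPEL1, SPG7, the called genes of each other list or else its 3 smallest p, and the 5 profiles nearest to the member with the smallest p. NLN, LACTB, MIPEP, ATF4, DDIT3, HSF1 and NRF1 fall outside this rule and were chosen after their values were seen. Members and lists were chosen with earlier results of these data known. Symbols of 3 list genes were matched through older names. Precision rests on 3 libraries per group and on 17241014 to 30861943 counts per library.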

Additional observations from a re-analysis of the deposited data

How the results depend on the processing

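The fold changes of the members kept their direction in every alternative except when a library was left out. HSPE1 then turned to 0.12 without sgCtrl #1 and 0.049 without sgCOX4I1 #3 (range -0.127 to 0.121), CLPP to -0.047 without sgCtrl #3 and -0.042 without sgCOX4I1 #1 (range -0.047 to 0.126), and the CLPX to CLPP ratio to -0.038 without sgCOX4I1 #3. The count of genes called was 247 by edgeR, 449 by DESeq2 and 537 with no filter on low counts, and 24 to 561 with 1 library left out. With the 2-fold requirement it was 24, against 41 with no filter and 9 to 50 with 1 library left out. Members called were 1 by edgeR, 2 by DESeq2, 2 with no filter (HSPA9 and LONP1 in both) and 0 with any 1 library left out; genes of the other lists called were 3, 5, 6 and 1 to 11 in the same order. Members with separate groups numbered 6, all with sgCOX4I1 above, beside 11.2% of all genes tested above and 10.4% below. With 1 library left out they numbered 6 to 7, but separate groups are easier to meet with fewer libraries. The share over all genes was not computed for those settings, so the 6 to 7 do not show stability. The ratio differences ranged from -0.33 to -0.072 for HSPE1 to HSPD1, from -0.038 to 0.179 for CLPX to CLPP and from -0.462 to -0.241 for SPG7 to AFG3L2. Causes were not tested.

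Replicate numbers were not used as pairs in the model of group. They were read as guide numbers, and guides differ between the groups, so a shared number is not a known pairing. Deviations of same-numbered libraries correlated at 0.382, -0.024 and 0.294, and 4 of 6 libraries correlated best with their own number. Whether same-numbered libraries share a batch was not tested. With a replicate block, which joins libraries of different guides, 1408 genes were called and 57 also reached 2-fold. The 1408 held COX4I1 (adjusted p = 0.000176), 5 members (HSPD1 at 0.036, HSPA9 at 0.00296, TRAP1 at 0.0443, DNAJA3 at 0.0271 and LONP1 at 0.00114) and 16 genes of the other lists. Scaling by total counts moved the median of all genes to 0.011, and the members' median stayed between 0.14 and 0.19 in every setting. Low counts limit HSPE1 and PARL.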
